A study of Mus musculus with 2 samples.

Results

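Lamina propria fibroblasts of the mouse intestine were examined as the Adamdec1-positive group of collagen-expressing cells in 2 single-cell RNA libraries. The cells were chosen by measured values, namely UMI counts (counts of unique RNA molecules) of a few genes in each barcode. A cell had to hold at least 5 UMIs of Col1a2 and Col3a1 together, none of Cdh5 or Epcam and at most 1 of Cd79a. It also had to hold at least 2 UMIs over Adamdec1, Tcf21, C1qtnf3, Cxcl13 and Igfbp3 (the B genes), and at least 2 times as many of these as of Has1, Dpt, Col14a1, Pcolce2 and Scara5 (the A genes). The rule found 444 cells among 15156 kept barcodes, 289 from the RA library and 155 from the butyrate library.

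Each library came from the dissociated whole intestine of 1 WT mouse. The RA library was from the mouse of the collagen-induced arthritis (CIA) group, a model of rheumatoid arthritis raised by immunization with collagen, kept on standard chow. The butyrate library was from a mouse fed 1% butyrate, a product of bacterial fermentation of fibre in the colon. Whether the butyrate mouse had arthritis too, and the strain, age and length of feeding, are not given in the sources used here. With 1 mouse a group no test between the diets is possible. Every interval below is a 95% interval that covers counting error only, and mouse, diet, disease and library preparation cannot be told apart.

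Fibroblasts of the lamina propria lie in the mucosa between the crypts and villi. They build the loose matrix under the epithelium, send BMP and Wnt family signals to epithelial cells, and make chemokines that place immune cells. Adamdec1, a secreted metalloprotease of the ADAM family, is a known marker of these mucosal cells, whereas adventitial fibroblasts around vessels and in the submucosa carry Pi16, Dpt and Col14a1. Cxcl13 is a chemokine that attracts B cells through the receptor CXCR5.

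Across the 2 libraries, 6909 RA and 8247 butyrate barcodes were kept. The lamina propria fibroblasts held a median of 6895 (RA) and 6762 (butyrate) UMIs, and 2064154 and 1124537 UMIs in all. The lowest barcode of the deposited table held 501 UMIs on the RA side and 2313 on the butyrate side, so the libraries had different floors. They shared 27 barcodes, and 1 lamina propria fibroblast of each library had a barcode that also occurred in the other.

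The sums that the rule cuts on are given as a description. The median cell held 102 B-gene and 7 A-gene UMIs in the RA library, and 90 and 9 in the butyrate library. Adventitial fibroblasts, gated in the same way with A and B exchanged, numbered 413 and 125, with medians of 1 B-gene UMI and 48 and 58 A-gene UMIs. Few cells sat near the threshold: 2 RA cells and 0 butyrate cells held only 2 B-gene UMIs, and 4 and 6 had under 3 times as many B-gene as A-gene UMIs. Just outside, 5 and 3 gated cells held between 1 and 2 times as many. With Cxcl13 left out of the sum, 287 RA and 151 butyrate cells still qualified. The others kept at least 2 B-gene UMIs but fell under the required multiple of A-gene UMIs.

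**Figure D1:**
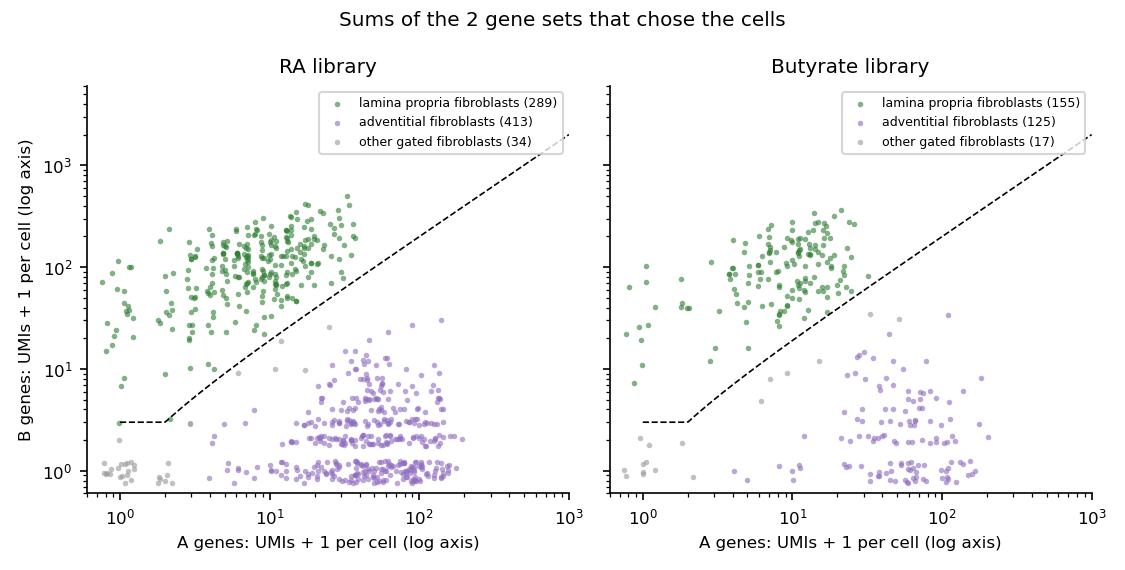
Each point, slightly jittered, is 1 gated fibroblast, with A-gene UMIs plus 1 on the x axis and B-gene UMIs plus 1 on the y axis (both log), by library. The dashed line is the selection threshold, and the 289 RA and 155 butyrate lamina propria fibroblasts lie on or above it, with few cells near it.

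The genes of the rule are given as a description. Adamdec1 (chr14:68563380-68582095, minus strand, mm10) stood at 11800 CPM (UMIs of the gene, scaled to the summed UMIs of the cells) in RA cells and 9891 in butyrate cells. It was found in 287 of 289 and 155 of 155 cells. Tcf21, a transcription factor of mesenchymal precursors, stood at 1044 and 1119 CPM, in 268 and 149 cells. Igfbp3, which binds insulin-like growth factors, stood at 2424 and 1927 CPM. C1qtnf3, a secreted protein with a C1q-like domain, stood at 301 and 327 CPM. Postn (periostin), a matricellular protein that the rule did not use, was found in 268 and 149 cells at 1975 and 1993 CPM. Adamdec1, Tcf21, Igfbp3 and Postn were thus present in most cells, and C1qtnf3 (156 and 88 cells) in fewer.

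Cxcl13 (chr5:95956951-95961068, plus strand, mm10) was unevenly spread. The sums gave 1216 CPM (1169 to 1265) in RA cells and 1923 CPM (1842 to 2005) in butyrate cells. However, 152 of 289 and 92 of 155 cells held any Cxcl13 UMI, the median cell held 1 and 2, and the highest held 140 and 213. The 10 highest cells carried 32.3% of all Cxcl13 UMIs in RA cells and 51.5% in butyrate cells, so the sums lean on few cells. With every cell thinned to 1000 UMIs (288 and 155 cells, 1 left out), Cxcl13 was found in 34.4% and 43.9% of cells. In B cells, which should lack it, it was found in 0% and 0.0288% after thinning, and in 0.138% and 0.144% before, at median depths of 4177 and 4595 UMIs. The same thinning found Adamdec1 in 97.9% and 96.8% of lamina propria fibroblasts, 99.3% and 100% before it, against 0.138% and 0.0575% of B cells.

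Lamina propria fibroblasts made up 4.18% of kept RA barcodes (3.72 to 4.68) and 1.88% of kept butyrate barcodes (1.60 to 2.20). The ratio of butyrate to RA was 0.449 (0.367 to 0.548). Among gated fibroblasts alone the order was the other way, at 39.3% (35.7 to 42.9) and 52.2% (46.3 to 58.0), a ratio of 1.33 (1.09 to 1.62). The denominators differ. Adventitial fibroblasts took 5.98% (5.43 to 6.56) and 1.52% (1.26 to 1.80) of the kept barcodes, endothelial cells 2.03% and 1.03%, and B cells 31.5% and 42.2%. Barcodes over the mitochondrial limit made up 30.0% of the RA and 15.4% of the butyrate barcodes, and their part in the shares was not tested beyond a limit of 10%, which gave 0.448 and 1.33.

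Markers of other cell types were checked over the whole lists. The list of subepithelial PDGFRA-high fibroblasts summed to 1699 and 1147 CPM, above the 688 and 856 of the highest other group. The smooth muscle or myofibroblast list summed to 695 and 1273 CPM, against 9363 and 19230 in smooth muscle cells or pericytes. Both are taken up below. The pericyte list summed to 139 and 138 CPM, the T cell list to 82.8 and 81.8, and the macrophage list to 35.9 and 55.1. Lymphoid reticular cells also make Cxcl13, but that 6-gene list summed to 11.1 and 22.2 CPM, against 9242 and 4573 in the highest other group. Of its genes Madcam1 was at 0 UMIs in both libraries and Ccl21a had 3 and 0, while Ccl19 had 6 and 14 and Tnfsf11 7 and 7. The follicular dendritic cell list summed to 6.30 and 7.11 CPM, with Sostdc1 at 0 in both. The endothelial list summed to 137 and 106 CPM, against 6896 and 7212 in endothelial cells. Kdr and Mmrn1 of that list were at 0 in both libraries, but Pecam1 was found in 94 and 31 cells (93.0 and 60.5 CPM) and Plvap in 47 and 36. The glial list summed to 72.2 and 121 CPM, nearly all of it Cryab (71 and 62 cells), with Sox10, S100b and Gfap at 0. The plasma cell list summed to 36.3 and 9.78 CPM, with Jchain in 29 and 10 cells and Mzb1 at 0. Of the goblet cell list (89.6 and 56.9 CPM), Muc2 was found in 89 and 36 cells, at 0.0313 and 0.0155 of the epithelial level. All 3 mast cell genes were at 0. The part of these RNAs in the results was not tested, other than by leaving out cells with Ptprc, Cd3e, C1qa or Krt8 UMIs. A small number of cells carried leukocyte RNA: Ptprc (CD45) UMIs were found in 23 and 11 cells, and Cd3g UMIs in 13 and 5. The adventitial list summed to 2605 and 2844 CPM, against 10001 and 10903 in adventitial cells. Of its 10 genes, 5 are the A genes of the rule, so this difference was largely set by the selection. Of its genes outside the rule, Pi16 stood at 0.0444 and 0.0843 and Cd34 at 0.333 and 0.301 of the highest group. Clec3b did not tell the groups apart well, since its level in lamina propria fibroblasts was 0.762 and 0.780 of the highest group.

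The next comparison describes what lamina propria fibroblasts expressed beside the adventitial fibroblasts of their own library. The groups were cut from the same gate by opposing gene sets, so differences follow in part from the rule and have no test. Of 9179 genes outside the rule with at least 20 UMIs in each library, 517 were at least 2-fold higher in both libraries (5.63%) and 393 at least 2-fold lower in both (4.28%). The strongest by the ratio nearer 1 was Dach1, a transcriptional regulator, at 404 and 350 CPM in lamina propria fibroblasts and 2.07 and 0.952 CPM in adventitial ones. Hpse2, a relative of heparanase, stood at 273 CPM in RA lamina propria fibroblasts and 1.48 in adventitial ones. Hpse, heparanase itself, which cuts heparan sulfate, was 30.7-fold (22.4 to 43.2) and 39.2-fold (21.7 to 79.1) higher. Col6a5, Adgrl3, Tafa1, Wnt4, Hapln1, Bmp5, Lin7a, Cntn1 and Rad51b completed the 12 highest. In the other direction Inmt, a methyltransferase of small amines, stood at 901 CPM in RA adventitial cells and 5.81 CPM in lamina propria fibroblasts. In the butyrate library it was at least 153-fold lower, with 0 UMIs in lamina propria fibroblasts. Ebf1, Gdf10, Cilp, Slit2, Ackr4, Ptx3, Chrm3, Limch1, Hecw2, Adgrg2 and Npy1r completed the 12 lowest.

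Signals to the epithelium differed by ligand. Of 17 measured BMP ligands and antagonists, 6 were past 2-fold higher in both libraries and 4 lower. Bmp5, a BMP ligand, stood at 397 and 265 CPM in lamina propria fibroblasts and at 4.14 and 6.67 CPM in adventitial cells. Bmp4 was 4.92-fold (4.44 to 5.45) and 3.58-fold (3.02 to 4.26) higher. The BMP response genes Id1 and Id2 were higher too, Id1 by 5.53-fold and 7.77-fold. The antagonist Fst (follistatin) went the other way, at 3.88 and 0 CPM against 163 and 77.1. Grem1, an antagonist that marks crypt-base trophocytes, was found in 26.0% and 35.5% of lamina propria fibroblasts and 22.8% and 28.8% of adventitial ones. Thinned to 1000 UMIs the shares were 9.03% and 11.6%, against 12.2% and 11.2%. The levels were 156 and 155 CPM against 181 and 114, so the order was not the same in both libraries. The whole 5-gene trophocyte list summed to 352 and 327 CPM, against 1190 and 928 in the highest other group. Of its other genes, Ackr4 (1.45 and 0 against 161 and 129 CPM), Cd81 (28.6 and 23.1 against 476 and 518) and Rspo3 were lower than in adventitial cells. Fgf10 was higher.

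Of 15 Wnt pathway genes, 6 were higher and 4 lower. Wnt4 stood at 208 and 139 CPM against 4.14 and 0.952, and Wnt2b at 44.1 and 26.7 CPM against 9.46 and 7.62. Rspo3, which strengthens Wnt signals at the crypt base, was lower, with ratios of 0.157 and 0.404. Fgf10 and Hgf, growth factors for epithelial cells, were 6.98-fold and 7.12-fold higher in RA cells and 21.2-fold and 12.3-fold higher in butyrate cells. Ereg (epiregulin), an EGF receptor ligand, was 9.92-fold and 6.16-fold higher. Ptch1, the Hedgehog receptor and itself a Hedgehog target, was 6.17-fold (5.26 to 7.27) and 4.95-fold (3.47 to 7.23) higher, and Foxf2 8.94-fold and 6.54-fold. Of 10 measured Hedgehog genes, 3 were past 2-fold higher and 0 lower, against 5.63% and 4.28% of all genes. In a list this short, 0 lower is near the share of all genes.

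Immune signals split in the same manner. Cxcl12, the ligand of CXCR4, stood at 2031 and 1957 CPM in lamina propria fibroblasts and 202 and 180 in adventitial cells. Ccl8 was 16.1-fold and 10.2-fold higher. By contrast Ccl2 and Ccl7, monocyte chemokines, stood at ratios of 0.122 and 0.125 and of 0.0564 and 0.0453. Il34, a ligand of the CSF1 receptor on macrophages, was 17.8-fold and 14.4-fold higher. Kitl (stem cell factor) was 8.39-fold and 11.4-fold higher, and Tnfsf13b (BAFF, a survival factor of B cells) 10.3-fold and 11.6-fold. Il33, an alarmin, was at 11.1 and 3.56 CPM against 128 and 110. Cxcl9 was also far higher, but 39.3% and 69.2% of its UMIs came from 1 cell of each library.

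Matrix genes split between the groups as well. Lamina propria fibroblasts held more Col15a1 (7.86-fold and 6.88-fold), Col4a5 (4.13-fold and 6.45-fold), Col12a1 (7.40-fold and 8.97-fold) and Tnc (4.12-fold and 5.12-fold). They held less Nid1, which links laminin to collagen IV, at ratios of 0.157 and 0.181. Fbn1 (fibrillin) stood at 0.210 and 0.162, and Mfap5, which sits on elastic microfibrils, at 0.0876 and 0.0985. Of 26 elastic fibre and matricellular genes, 4 were higher and 7 lower. In complement, C4b was 3.22-fold (2.92 to 3.54) and 3.57-fold (3.23 to 3.94) higher, and C3 lower at 0.246 and 0.479. Hcar2, a receptor that binds niacin and butyrate, stood at 22.3 and 17.8 CPM in lamina propria fibroblasts, against 0.592 and 0 CPM.

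Receptors and transcription factors marked the group too. Of 24 measured receptors, 7 were higher in both libraries and only Egfr lower, at 0.356 and 0.454. Ednra, a receptor of endothelin, stood at 145 and 114 CPM against 6.80 and 8.57, and Fgfr2, a receptor of FGF ligands, was 4.71-fold and 2.60-fold higher. Pitx1, a homeobox factor of the hindgut and hindlimb, was 8.01-fold and 6.85-fold higher, and Nkx2-3, a homeobox factor of gut mesenchyme, 3.17-fold and 2.11-fold. Prrx1 and Twist1, mesenchymal factors, were nearly missing: Prrx1 stood at 0.484 and 0 CPM against 61.5 and 55.2, and Twist1 at 3.39 and 8.89 against 46.7 and 56.2. Retinoid genes were higher in 4 of 12 cases, among them Aldh1a2, which makes retinoic acid, at 95.4 and 76.5 CPM against 30.8 and 24.8, and Rbp4 at 5.10-fold and 5.23-fold. Pparg, a nuclear receptor of fatty acids, was 5.98-fold (4.24 to 8.59) and 4.14-fold (2.38 to 7.64) higher. The stress genes Hspa1a and Hspa1b differed between the groups as well, at 3.30-fold and 2.34-fold for Hspa1a.

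**Figure D2:**
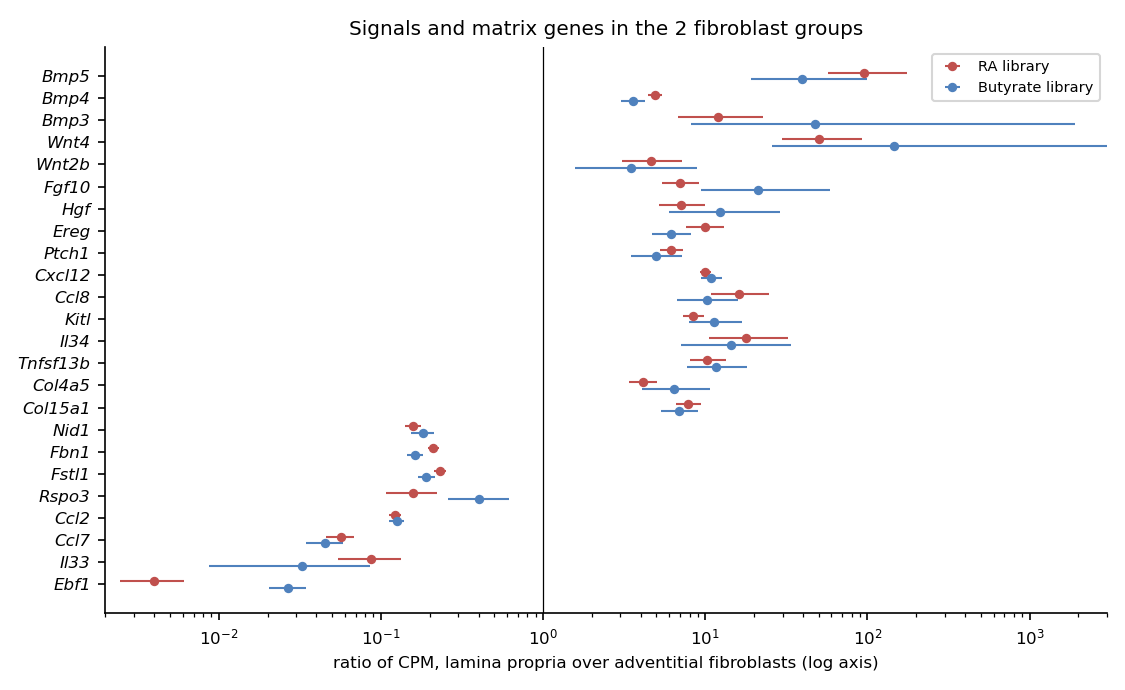
Points are CPM ratios of lamina propria over adventitial fibroblasts (log axis) in each library, with 95% intervals for counting error, cut at the edge of the axis for Wnt4. Bmp5, Wnt4 and Il34 lie far to the right in both libraries, and Ebf1, Il33 and Ccl7 far to the left.

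Between the libraries, within lamina propria fibroblasts, a gene was called past the fold when its CPM ratio of butyrate to RA was at least 1.5, or at most its inverse, with an interval on one side of 1. Of 10388 genes with at least 20 UMIs, 430 were higher in the butyrate library by this rule (4.14%) and 539 lower (5.19%). The median log2 ratio of all genes was -0.01, and 47.9% were above 0. Against this background the heat shock, MHC class I, interferon gamma and secretory lists leaned to the butyrate library, and the Hedgehog and cholesterol lists to the RA library. These leans were not particular to lamina propria fibroblasts. Adventitial fibroblasts had medians of 0.68 for MHC class I, 0.51 for interferon gamma, 0.28 for secretory and -0.23 for Hedgehog genes. The cholesterol median was -0.07 there, -0.45 in epithelial cells, -0.26 in B cells and 0.06 in macrophages.

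Heat shock genes were higher in the butyrate library in 14 of 14 cases, 13 of them past the fold, with a median log2 ratio of 0.80. They encode chaperones that hold or refold damaged proteins. Hspb1, a small heat shock protein, stood at 195 CPM (176 to 215) in RA cells and 571 (528 to 617) in butyrate cells, a ratio of 2.93 (2.58 to 3.33). It was detected in 90 of 289 and 74 of 155 cells. Hspe1, the lid of the mitochondrial chaperonin, stood at 255 CPM (234 to 278) and 551 (509 to 596), a ratio of 2.16. Its partner Hspd1 stood at 131 and 260 CPM, a ratio of 1.98. Dnajb1, a co-chaperone of HSP70, stood at 779 and 1567 CPM, a ratio of 2.01 (1.88 to 2.15). Hsp90aa1 stood at 1687 and 3304 CPM, a ratio of 1.96. The inducible HSP70 genes Hspa1a and Hspa1b stood at 5594 and 5151 CPM in RA cells and 8395 and 7844 CPM in butyrate cells. These near-identical copies may share reads, so how the counts divide between them is uncertain. The intervals of the libraries did not overlap for any of the genes named here.

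The heat shock list leaned the same way in several other groups of cells. It had a median log2 ratio of 0.82 in adventitial fibroblasts, 0.61 in endothelial cells, 0.65 in macrophages and 0.47 in epithelial cells. The median was 0.10 in B cells and -0.07 in T cells. Immediate early genes, which dissociation of tissue also raises, had a median of 0.05 in lamina propria fibroblasts, with 15 of 22 higher. Fos stood at 5196 and 6436 CPM and Egr1 at 6820 and 6432. Klf2, a factor of quiescence and flow response on this list, was past the fold at 2.11 (1.91 to 2.33), and Socs3, a feedback inhibitor of cytokine signals, at 0.625 (0.565 to 0.690) the other way. The part of such a stress response to dissociation in these differences was not tested.

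The promoters of 3 heat shock genes are shown because the list leaned one way, and that of B2m because it encodes the light chain shared by MHC class I molecules. Each is the 250 bases before the RefSeq gene start on GRCm38.p6, written 5′ to 3′ on the strand of the gene. Capitals in the heat shock promoters mark GAANNTTC or TTCNNGAA, paired units bound by heat shock factors, with N any base. Both strands were searched, each motif equals its own reverse complement, and matches of the motifs can overlap. Capitals in B2m mark a pattern bound by interferon regulatory factors, GAAA followed by any 2 bases and GAAA again, or its reverse complement. Hspb1 lies at chr5:135887669-135887918, plus strand, Hspa1a at chr17:34972157-34972406, minus strand, Hspe1 at chr1:55087898-55088147, plus strand, and B2m at chr2:122147437-122147686, plus strand.
Hspb1: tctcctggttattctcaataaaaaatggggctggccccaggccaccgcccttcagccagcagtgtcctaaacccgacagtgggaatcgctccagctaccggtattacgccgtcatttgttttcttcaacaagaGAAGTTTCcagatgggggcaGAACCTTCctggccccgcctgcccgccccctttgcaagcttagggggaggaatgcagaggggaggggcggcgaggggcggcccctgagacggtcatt
Hspa1a: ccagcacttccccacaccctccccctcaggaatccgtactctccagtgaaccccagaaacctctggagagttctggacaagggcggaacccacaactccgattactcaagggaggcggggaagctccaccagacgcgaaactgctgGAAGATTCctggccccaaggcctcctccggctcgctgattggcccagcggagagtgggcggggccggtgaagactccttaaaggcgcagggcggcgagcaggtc
Hspe1: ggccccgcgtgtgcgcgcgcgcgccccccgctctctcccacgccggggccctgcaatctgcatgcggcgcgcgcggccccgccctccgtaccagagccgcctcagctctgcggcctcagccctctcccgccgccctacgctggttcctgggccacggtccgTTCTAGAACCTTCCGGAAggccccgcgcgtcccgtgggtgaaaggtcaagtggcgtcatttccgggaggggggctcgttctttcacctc
B2m: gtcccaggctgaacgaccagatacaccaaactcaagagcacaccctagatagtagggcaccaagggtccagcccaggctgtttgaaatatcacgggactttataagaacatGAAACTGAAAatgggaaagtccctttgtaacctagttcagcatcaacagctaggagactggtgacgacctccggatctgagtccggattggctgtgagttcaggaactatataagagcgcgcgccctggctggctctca
The Hspb1 promoter holds 2 matches, starting 117 and 97 bases before the gene start, and Hspa1a 1 match, 104 bases before it. In Hspe1, 3 overlapping matches form 1 run that begins 89 bases before the start.

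In windows of 300 bases, from 250 before to 50 after each gene start, 11 of the 14 heat shock genes had a RefSeq promoter. Some genes have more than 1, giving 17 promoters in all. GAANNTTC occurred in 9 of these 17 promoters (8 of the 11 genes), against 7.86% of all 32851 promoters. TTCNNGAA occurred in 5 of the 17, against 8.52% of all promoters. The 3-unit form, GAANNTTC followed by NNGAA or its reverse complement, contains both shorter motifs and occurred in 4 of the 17 promoters, those of Hsph1, Hspd1 and Hspe1, against 0.603% of all promoters. The windows of Hspd1 and Hspe1, on opposite strands, share 4 bases. The interferon regulatory pattern occurred in 11 of 16 type I interferon genes with a promoter, in 9 of 16 interferon gamma genes and in 2 of 13 MHC class I genes (B2m and H2-T23). Per promoter, that is 12 of 18, 9 of 19 and 2 of 14, against 3.44% of all promoters. The Gli motif GACCACCCA occurred in 0 of 6 Hedgehog genes with a promoter and in 0.253% of all promoters. These matches describe letters in a window, and binding was not measured.

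MHC class I and peptide loading genes were higher in the butyrate library in 14 of 15 cases, with a median log2 ratio of 0.57 and 6 past the fold. They display peptides to CD8 T cells. B2m, the light chain, stood at 1531 CPM (1478 to 1585) and 2628 (2534 to 2724), a ratio of 1.72 (1.63 to 1.81). H2-K1 stood at 1122 CPM (1076 to 1168) and 1717 (1641 to 1795), a ratio of 1.53. H2-D1 stood at 2110 and 3524 CPM, a ratio of 1.67, and H2-Q7 at 53.3 and 103. The libraries' intervals did not overlap for these genes. Reads of the H2 genes may be split between near-identical copies. Tap1 (1.57) and Psmb8 (1.52) were past the fold as well, and Psmb10 stood at 0.985 (0.687 to 1.40). B2m, H2-K1 and H2-D1 were higher in adventitial fibroblasts also, with ratios of 2.10, 2.15 and 2.03.

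**Figure D3:**
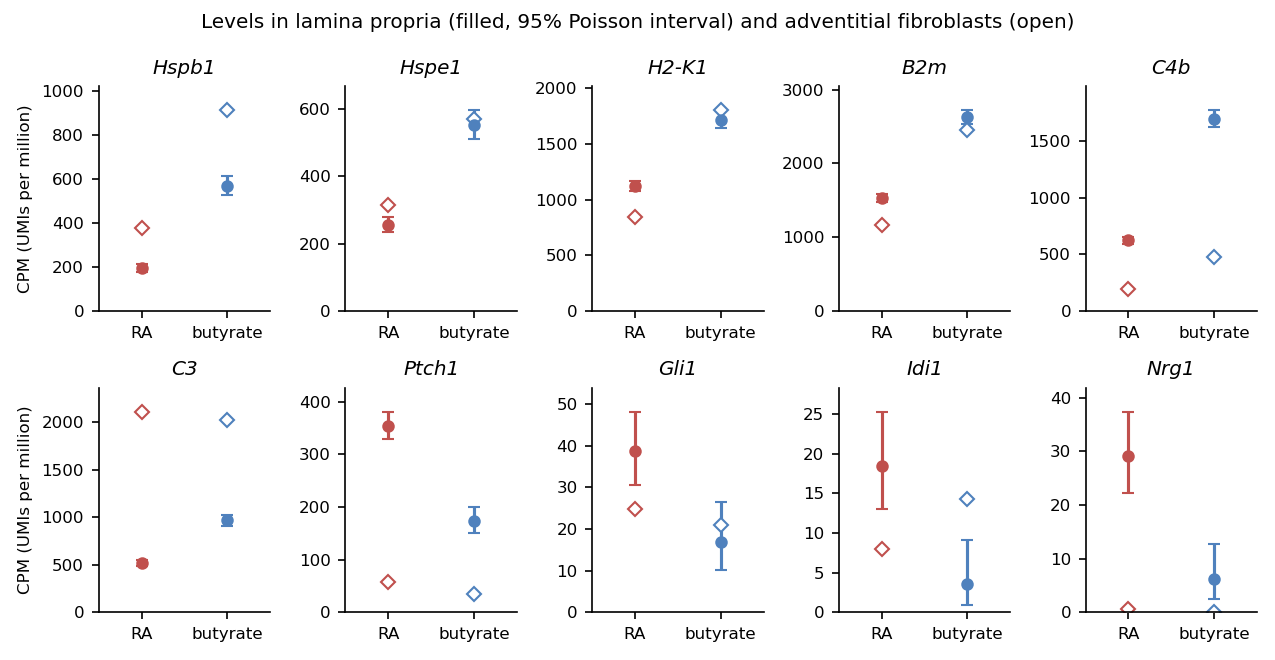
Filled points are CPM in lamina propria fibroblasts with 95% Poisson intervals, and open diamonds are CPM in adventitial fibroblasts of the same library. Hspb1, Hspe1, H2-K1, B2m and C4b were higher in the butyrate library in both groups. In lamina propria fibroblasts C3 was higher (519 and 968 CPM) and Ptch1, Gli1, Idi1 and Nrg1 lower in the butyrate library.

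The 2 interferon lists differed in their counts. Interferon gamma genes were higher in the butyrate library in 16 of 19 cases, with a median log2 ratio of 0.55, although only 4 were past the fold: Cxcl9, Gbp4, Tap1 and Psmb8. Tap1 and Psmb8, like Psmb9, are on the MHC class I list too, and Cxcl9 is on the chemokine list, so these lists share calls. Gbp4 rested on 11 and 19 UMIs. When thinned, Gbp4 (0.372) and Tap1 (0.845) turned the other way. The guanylate-binding protein Gbp2 stood at 85.7 and 116 CPM, and the transcription factor Irf1 at 379 and 431. In the type I interferon list 11 of 18 genes were higher, with a median of 0.12 and 3 past the fold, among them Ifit3 and Isg15. For Ifit3, 31.1% and 49.3% of the UMIs came from 1 cell. The same type I list had a median of 0.72 in adventitial fibroblasts, with 18 of 19 higher, and 1.14 in epithelial cells, with 20 of 20. Whether the 2 fibroblast groups differ was not tested. Ifi27l2a, an interferon-induced gene, stood at 1168 and 1028 CPM in lamina propria fibroblasts, a ratio of 0.880, and at 1.32 in adventitial cells.

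Complement genes were higher in 11 of 14 cases, with a median log2 ratio of 0.42. C4b (chr17:34728380-34743882, minus strand, mm10), a component of the classical and lectin pathways, stood at 623 CPM (589 to 658) in RA cells and 1698 (1623 to 1776) in butyrate cells. The ratio was 2.73 (2.54 to 2.93), no cell held more than 2.25% of its UMIs, and it was found in 205 of 289 and 140 of 155 cells. C3, the hub of the cascade, stood at 519 and 968 CPM, a ratio of 1.86 (1.71 to 2.03), and C2 at 23.7 and 55.1. In adventitial fibroblasts C4b had a ratio of 2.46, but C3 was at 0.956 (0.911 to 1.00). Cd55, which protects cells from complement, had a ratio of 1.53, and F3, tissue factor, 0.617. Thinned to 1000 UMIs a cell, C4b was found in 40.3% and 67.1% of lamina propria fibroblasts and C3 in 24.7% and 43.9%, against 70.9% and 90.3%, and 54.3% and 71.0%, before thinning. In B cells C4b was at 0.0460% and 0.0863% after thinning.

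Hedgehog genes were lower in the butyrate library in 10 of 11 cases, with a median log2 ratio of -0.29. Epithelial Hedgehog ligands act on the fibroblasts beneath, and Gli1, Ptch1 and Hhip are known targets. Ptch1 (chr13:63508328-63573598, minus strand, mm10) stood at 354 CPM (329 to 381) and 174 (151 to 200), a ratio of 0.492 (0.418 to 0.577). It was found in 211 of 289 and 82 of 155 cells. Thinned, it was found in 30.6% and 16.8% of cells (73.0% and 52.9% unthinned), against 0.736% and 0.834% of B cells. Gli1 stood at 38.8 and 16.9 CPM, a ratio of 0.436 (0.250 to 0.726), on 80 and 19 UMIs. Gli3 had a ratio of 0.644. After thinning, Gli1 and Gli3 had ratios of 1.06 and 1.11, and 5 genes of the list were lower, with a median of 0.16. Thinning is a random draw that leaves few UMIs of such genes: Gli1 was found in 7 of 288 and 7 of 155 thinned cells. Ptch1 kept its direction, between 0.372 and 0.501 over all 11 alternatives. Hhip went the other way at 1.70, but 53.2% and 58.6% of its UMIs came from 1 cell. In adventitial fibroblasts Ptch1 had a ratio of 0.614 (0.420 to 0.877), and Gli1 0.843 (0.502 to 1.36).

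Cholesterol genes were lower in 13 of 17 cases, with a median log2 ratio of -0.26 and 3 past the fold, on few UMIs. Idi1, an isomerase of the mevalonate pathway, stood at 18.4 CPM (13.0 to 25.3) and 3.56 (0.969 to 9.11), from 38 and 4 UMIs. Sqle (squalene epoxidase) had a ratio of 0.367, on 50 and 10 UMIs. Secretory pathway and unfolded protein genes were higher in 19 of 20 cases, with a median of 0.29. Hspa5 (BiP), which is on the heat shock list too, had a ratio of 1.76, and Serpinh1, the collagen chaperone, 1.58. The collagens showed little: 7 of 11 were higher, the median was 0.01 and 0 were past the fold, with Col1a1 at 1461 and 1607 CPM. Fn1 (fibronectin) stood at 1034 and 1036 CPM.

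**Figure D4:**
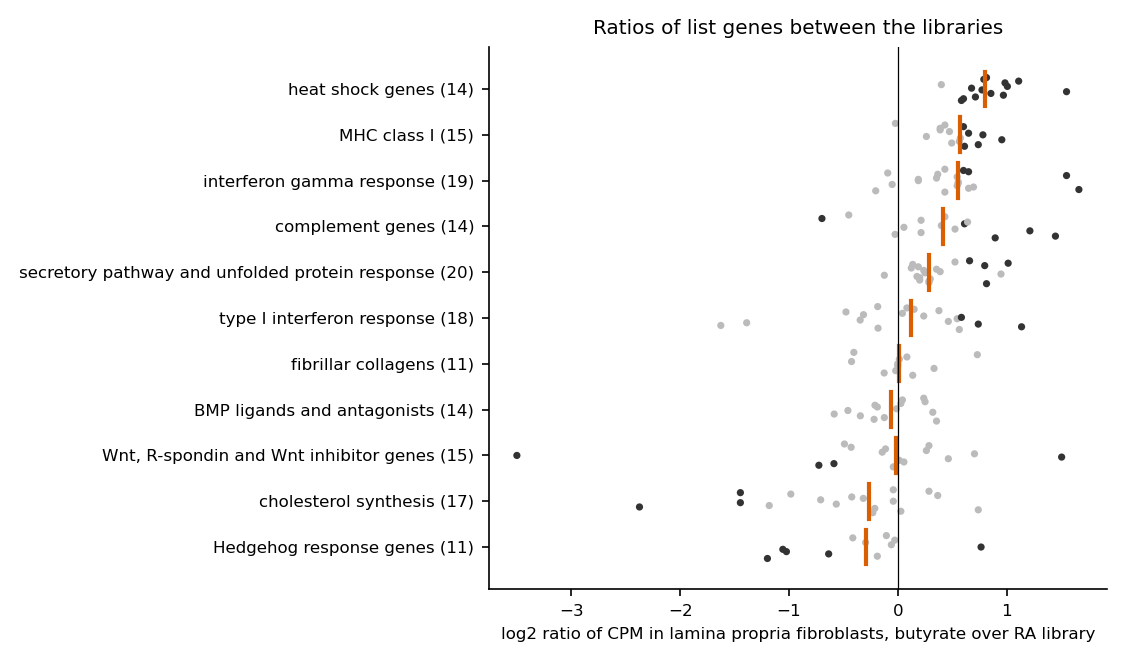
Each point is the log2 CPM ratio of butyrate over RA for 1 gene in lamina propria fibroblasts, dark where past the fold, and the bar is the list's median. The number of measured genes is in brackets. Heat shock genes sit to the right (median 0.80) and Hedgehog genes to the left (median -0.29). Rspo1, with 0 butyrate UMIs, is drawn at the left edge.

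Signals to the epithelium and to immune cells differed by list. Of 14 BMP genes 0 were past the fold, with Bmp4 at 734 and 579 CPM. Bmp5, at 397 and 265 CPM, was just short of it with a ratio of 0.667 (0.582 to 0.763). Of 15 Wnt genes, 1 (Wnt11) was past the fold higher and 3 lower, namely Wnt2b (0.605), Wnt4 (0.666) and Rspo1. Wnt2b turned to 1.24 and Wnt11 to 0.929 when thinned. Rspo1 was at least 9.08-fold lower, with 50 RA UMIs and 0 butyrate UMIs, but 84.0% of the former came from 1 cell. Among 16 epithelial growth factors, 2 were past the fold higher and 1 lower. Ereg stood at 200 CPM (181 to 220) and 370 (335 to 407), a ratio of 1.85. Nrg1 (neuregulin 1, a ligand of ERBB receptors) stood at 29.1 and 6.22 CPM, a ratio of 0.214 (0.0826 to 0.469). Nrg1 came from 30 of 289 and 5 of 155 cells. Among 16 chemokines, 5 were past the fold higher and Cxcl14 lower (0.612). Ccl8 stood at 134 and 242 CPM, but macrophages held more of it, and Cxcl1 at 684 and 1028. Cxcl2, Cxcl9 and Ccl19 rested on few cells or UMIs: for Cxcl2, which lamina propria fibroblasts held at 0.00352 and 0.0110 of the highest group's level, 27 butyrate cells held 160 UMIs. Cxcl12 stood at 2031 and 1957 CPM.

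In the fatty acid list 11 of 20 genes were higher, with 3 past the fold higher and 2 lower. Angptl4, an inhibitor of lipoprotein lipase and a known PPAR target, stood at 17.9 CPM (12.6 to 24.7) and 64.9 (50.9 to 81.6), a ratio of 3.62. Plin2, a lipid droplet coat protein, had a ratio of 1.95, at 0.0754 and 0.114 of the highest group's level. Cd36 had 0.258, on 57 and 8 UMIs. Of 13 histone deacetylase and short-chain fatty acid genes, 4 were higher and 0 past the fold, with Hdac1 at 61.5 and 61.4 CPM and overlapping intervals. Aldh1a3, which makes retinoic acid, stood at 176 and 105 CPM, a ratio of 0.595, and Ptgs1 (COX-1) at 91.6 and 55.1. Fgfr2, a receptor of FGF ligands, stood at 464 and 304 CPM, a ratio of 0.655. Tnc stood at 431 and 253 CPM, a ratio of 0.588, and Tgfb2 at 104 and 61.4. MHC class II genes were past the fold in 3 of 5 cases, far under the macrophage level: H2-Aa stood at 0.00395 and 0.00799 of it, and Cd74 at 0.00356 and 0.00876. Without cells holding Ptprc, Cd3e, C1qa or Krt8 UMIs the H2-Aa ratio went from 2.45 to 1.27.

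Transcription factors and enzymes of matrix and immune signalling gave single calls. Hoxa10, a factor of the posterior gut, stood at 44.6 and 71.1 CPM, a ratio of 1.60 that turned to 0.929 when thinned. P4ha1, which hydroxylates collagen, had a ratio of 1.51, and Serpine2, a protease inhibitor, 0.621. Col4a6, a chain of collagen IV, stood at 91.1 and 40.9 CPM, a ratio of 0.449 (0.318 to 0.623). Without cells holding Acta2, Myh11, Tagln, Sox6 or F3 UMIs the Col4a6 ratio was 0.933, so the call was lost. Il4ra, the receptor of IL-4 and IL-13, had a ratio of 0.505, and 0.984 when thinned. Kitl stood at 531 and 358 CPM and Tnfsf13b at 223 and 276, both short of the fold.

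Across all genes, those with the farthest ratios were mostly of low count. Beside Hspb1, C4b, C2 and Angptl4, the 12 highest were Mpv17l (24.2 and 104 CPM), Stmn2, Serpina3g, Prrg3, Trnp1, Tubb2b, Zfp275 and Cks2. Mpv17l had a ratio of 4.30, and 1.66 without the cells holding Acta2, Myh11, Tagln, Sox6 or F3 UMIs. Thinned, Stmn2 went from 4.09 to 1.49, C2 from 2.32 to 1.39, Tubb2b from 2.52 to 0.929, Map2k6 from 0.247 to 0.619 and Rnf122 from 0.334 to 1.11. The filters on cells and level were met in the library where a gene was higher, so they favour genes that differ. Nrg1, for example, came from 5 butyrate cells, and Stmn2 stood at 0.0590 of the highest group in the RA library. Mpv17l came from 13 butyrate cells, and Serpina3g, a serine protease inhibitor that interferon induces, from 25. Beside Nrg1, the 12 lowest were Ccbe1, Map2k6, Astn2, Ica1, Pde4c, Rnf141, Mrtfb, Smoc1, Rnf122, Nhej1 and Penk. Map2k6, a kinase upstream of p38, came from 67 and 9 UMIs, a ratio of 0.247 (0.108 to 0.497). Penk (proenkephalin) had a ratio of 0.344 on 80 and 15 UMIs, and 0.845 when thinned.

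Cells with and without Cxcl13 differed in other genes. Only genes past 2-fold in the same direction in both libraries were counted, so their shared direction is set by this rule. This split was chosen after seeing the data. In the RA library 110 cells held at least 3 Cxcl13 UMIs, 42 held 1 or 2, and 137 held 0, and in the butyrate library 74, 18 and 63. Classes cut from counts in this manner were not tested as types of cell. Depth was similar, with medians of 6909 and 6663 UMIs at 3 or more and at 0 in the RA library, and 6529 and 7067 in the butyrate library. Of 6702 genes, 17 were at least 2-fold higher in the Cxcl13 cells of both libraries (0.254%) and 89 at least 2-fold lower (1.33%).

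Genes higher with Cxcl13 included Mgp, an inhibitor of calcification and of BMP, at 2133 against 955 CPM (RA) and 3721 against 1239 (butyrate). Ccl2 stood at 365 against 165 and 596 against 120 CPM, and Cxcl10, a ligand of CXCR3, at 517 against 239 and 652 against 289. Rspo3 had ratios of 2.68 and 3.95, on at most 25 UMIs a group. Serpina3n, Nlgn1, Foxp2 and Frmpd4 were also on this side. Il6 had ratios of 1.97 and 2.39 and Aldh1a2 1.98 and 2.71, which is short of 2-fold in the RA library.

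Genes lower with Cxcl13 included contractile genes. Acta2 (smooth muscle actin) stood at 9.90 against 395 CPM and 7.71 against 842, Tagln at 7.42 against 435 and 13.5 against 1103, and Myh11 at 1.24 against 110 and 1.93 against 389. These came from few cells: UMIs of contractile genes were found in 69 and 26 cells, and the 10 highest held 75.1% and 95.5% of them. Markers of subepithelial PDGFRA-high fibroblasts, which lie against the epithelium, were lower as well, in 5 of 8 measured cases. The contractile and Sox6 cells overlapped: of the 18 RA and 13 butyrate cells with at least 10 contractile UMIs, 15 and 11 also held Sox6. Sox6, a transcription factor, stood at 60.6 against 730 CPM and 48.2 against 665, F3 at 45.8 against 281 and 21.2 against 167, and Bmp3 at 1.24 against 78.7 and 7.71 against 89.5. Sox6 UMIs were found in 79 of 289 RA cells (27.3%, 22.3 to 32.9) and 34 of 155 butyrate cells (21.9%, 15.7 to 29.3), with overlapping intervals. In B cells the share was 0.689% and 0.431%. Col4a5, Rbp4 (retinol-binding protein), Wnt5a, Procr, Ogn and Fn1 were lower with Cxcl13 as well. Between the libraries, the level of Sox6 had a ratio of butyrate to RA of 0.763 (0.675 to 0.863). The whole 10-gene subepithelial list summed to 1699 (RA) and 1147 CPM (butyrate), and 195 and 78 cells held at least 3 of its UMIs. Of these genes only Wnt5a had a ratio above 1, at 1.04. F3, Tnc and Nrg1 were among those past the fold lower in the butyrate library. Sox6 cells lay on both sides of the split. In the RA library 21 of 110 cells with at least 3 Cxcl13 UMIs held Sox6, and 45 of 137 cells with 0. In the butyrate library these were 11 of 74 and 18 of 63. The summed groups differed in their levels of Ccl2, Mgp, Sox6, F3 and Bmp3. Whether the Adamdec1-positive cells form a range or separate types was not tested.

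**Figure D5:**
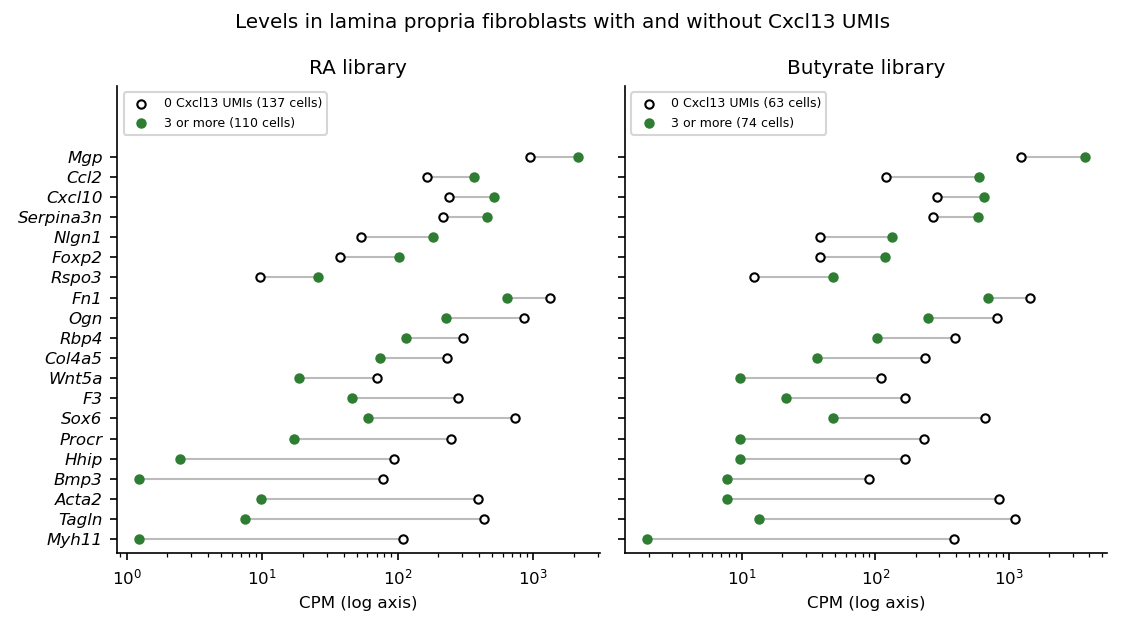
Each line joins the CPM (log axis) of a gene in lamina propria fibroblasts with 0 Cxcl13 UMIs (open) and with 3 or more (filled), by library. Mgp, Ccl2 and Cxcl10 were higher in the Cxcl13 cells of both libraries, and Sox6, Bmp3, Acta2 and Myh11 lower.

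The subepithelial and contractile cells bear on the comparison of libraries. With every cell holding a UMI of Acta2, Myh11, Tagln, Sox6 or F3 left out, an alternative added after the data were seen, the Ptch1 ratio was 0.372 and the Tnc ratio 0.378. Without them 14 of 14 heat shock genes and 13 of 15 MHC class I genes were higher in the butyrate library. Other values moved toward 1 or away from it: Col4a6 went from 0.449 to 0.933, Mpv17l from 4.30 to 1.66, Idi1 from 0.193 to 0.440 and Ifit3 from 2.20 to 9.61. The C4b ratio was 2.59 and the Hspb1 ratio stood between 2.89 and 4.62 over all 11 alternatives. For the shares, cells holding those UMIs were taken out of the numerators only, and the denominators kept every cell. Counted in this manner, the share of gated fibroblasts had a ratio of 1.55, and that of kept barcodes 0.524.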

How the data were processed

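Cells of whole mouse intestine were profiled with 10x 3' v3.1 chemistry. The deposited values are UMI counts per gene and cell barcode, made by the authors with Cell Ranger: 6.0.1 per the submitters' processing notes, which also name Seurat 4.0.3 and 4.0.4 and mm10, and 7.1.0 per the file headers. Whether introns were counted is not given in the sources used here. Of 31253 gene identifiers, 31107 were found in GENCODE M21. A barcode was kept from 500 UMIs and 250 genes upward, with a mitochondrial limit of 25%. No doublet caller was run. Doublets were limited by the gates on Cdh5, Epcam and Cd79a, and by alternatives without cells holding Ptprc, Cd3e, C1qa or Krt8 UMIs and without cells above the 95th percentile of UMIs. The counts were summed per library over the chosen cells and scaled to CPM, with exact Poisson intervals. Ratios carry exact conditional binomial intervals and shares Clopper-Pearson intervals, all at 95%. UMIs count molecules, so intervals leave out the spread between mice. Genes named across the whole table were the 12 highest and 12 lowest ratios with at least 50 UMIs and an interval leaving out 1. In the library where they were higher, they also needed UMIs in at least 10 cells, at most 25% of them from 1 cell, and a level of at least 0.2 of the highest cell group. Mitochondrial, ribosomal, antigen receptor, haemoglobin, Y-linked and rule genes, Xist, Tsix and unnamed gene models were left out. Other X-linked genes were kept. The cells, the 29 gene lists and the rules were chosen with earlier results of these data known. Promoters came from RefSeq (GRCm38.p6). List medians add 0.5 to each sum. Python 3.11.15, numpy 2.4.6, scipy 1.17.1, pandas 2.3.3 and matplotlib 3.10.9 were used. The ratio call alone was tested on simulated data, with Poisson counts that have no spread between cells or mice. The 6 main shares and counts, 29 list counts and 105 gene ratios between libraries were recomputed under 13 alternatives where they apply. Ratios of single genes against adventitial fibroblasts and the Cxcl13 split were not. A few genes of the lists are not reported here by name, though the counts include them.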

Additional observations from a re-analysis of the deposited data

Results flagged for a closer look

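The ratio of butyrate to RA went opposite ways in lamina propria and adventitial fibroblasts for 2 named genes, with intervals on opposite sides of 1. Ica1, a protein of secretory vesicles, had a ratio of 0.290 (0.126 to 0.590) in lamina propria fibroblasts, on 57 and 9 UMIs, and 12.9 (1.27 to 634) in adventitial fibroblasts, on 1 and 4 UMIs. Pdgfc, a ligand of PDGF receptors, had a ratio of 4.34 (2.07 to 9.73) in lamina propria fibroblasts, on 11 and 26 UMIs of which 1 butyrate cell held 57.7%, and 0.403 (0.155 to 0.885) in adventitial fibroblasts, on 56 and 7 UMIs. The difference between the groups was not tested for either gene.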

How the results depend on the processing

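Over the alternatives, 1037 recomputed gene ratios stayed within counting error of the reported value, 89 moved further and 17 reversed. Thinning every cell to 1000 UMIs reversed Acadm (0.429), Ch25h (0.697), Gbp4 (0.372), Gli1 (1.06), Gli3 (1.11), Hoxa10 (0.929), Ppard (1.63), Rnf122 (1.11), Tap1 (0.845), Tubb2b (0.929), Wnt11 (0.929) and Wnt2b (1.24). These ratios come from 1 random draw and are given without intervals, and the part of counting error in the reversals was not tested. By its construction thinning leaves fewer UMIs: 118 genes were past the fold higher and 163 lower between libraries. Against adventitial cells 122 were higher and 141 lower. Under thinning 5 Hedgehog genes and 5 Wnt genes were lower and 7 fatty acid genes higher. Leaving out cells with Ptprc, Cd3e, C1qa or Krt8 UMIs reversed Hhip (0.784) and Il18r1 (0.457). Leaving out the cells above the 95th percentile of UMIs reversed Csf2 (0.605) and Il18r1 (0.605). The mean over cells, which has no interval, put 974 genes higher and 1313 lower. With at least 50 UMIs per gene, 326 genes were 2-fold higher than in adventitial cells. With a mitochondrial limit of 10%, 4 genes of the collagen list were higher. Without cells holding Acta2, Myh11, Tagln, Sox6 or F3 UMIs, added after seeing the data, Inhba reversed (0.733). Beyond what construction sets, the cause was not tested. Heat shock genes were higher in 14 of 14 cases under each alternative that recomputed the list, with medians of 0.78 to 0.90. The share of kept barcodes had ratios of 0.424 to 0.524. The highest came without cells holding Acta2, Myh11, Tagln, Sox6 or F3 UMIs, taken out of the numerator only. Genes under about 50 UMIs are limited by depth. No paired analysis was possible because each group has 1 library.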
